A study of Mus musculus with 9 samples.

Results

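The set described here is the interleukin-6 family of cytokines and the signalling chain of its shared receptor subunit gp130, read from the right ventricle of mice with and without a pulmonary artery band. It holds 9 of the 18193 genes measured. They are the ligands Il6, Il11 and Lif, the receptor chains Lifr, Osmr and Il6st, the transcription factor Stat3, the feedback inhibitor Socs3 and the induced gene Sprr1a. The first 8 were chosen for their place in the pathway. Sprr1a was chosen by its measured difference between banding and sham, so its values are a description and carry no test. All probe sets whose symbol in the platform's gene table is exactly a member's were taken, 22 in all.

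The banding group was myocardium of the right ventricle from male C57BL6J mice, 6 to 8 weeks old, whose pulmonary artery had been narrowed by a band, which raises the pressure the ventricle pumps against (5 arrays). The sham group was the same tissue from male C57BL6J mice of the same age after sham surgery (4 arrays). Their RNA was read on one-colour Affymetrix arrays, and the values are log2 expression per probe set. The labels do not say that each replicate is a separate animal, so p-values measure the spread between these arrays. The time since surgery is not stated in the sources used here.

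Cytokines of this family bind a receptor chain of their own and then engage gp130, the product of Il6st. OSMR and LIFR are signalling chains that pair with gp130 for oncostatin M and for LIF. Kinases of the JAK family on these chains phosphorylate STAT3, which enters the nucleus and switches on target genes, among them Socs3, whose product shuts the receptor down again. In heart muscle the pathway is known for its part in hypertrophic growth and in the survival of myocytes under load. In whole tissue, fewer cells of a type and less RNA per cell cannot be told apart.

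The ventricles held cardiomyocyte transcripts at high level in both groups, and the summed level of the 12 markers was 18.62 to 18.84 log2 units in banding and 18.90 to 18.97 in sham. Of these 12, 6 passed the test downwards and 0 upwards. Fibroblast markers summed to 17.39 to 17.63 in banding and 15.13 to 15.32 in sham, and 11 of 12 passed the test upwards. Macrophage and monocyte markers summed to 14.75 to 15.34 in banding and 13.79 to 14.04 in sham, with 11 of 13 higher and 1 lower. Of the endothelial markers 6 of 10 were higher, and of the smooth muscle and pericyte markers 7 of 9, with 0 lower in either list. Liver transcripts stood on the sham arrays: the 12 liver markers summed to 6.549 to 9.748 in banding and 13.39 to 17.01 in sham, and all 12 were lower in banding. Alb, which encodes albumin, reached 8.51 on banding replicate 5 and lay between 2.34 and 3.31 on the other banding arrays, against 14.85 on sham replicate 4 and 11.45 to 12.73 on the other sham arrays. The part of these cells in the results below was not tested. For the liver transcripts a fit with their mean level as a covariate is given below. That mean nearly coincides with the groups, so the covariate fit cannot separate the 2. Values without sham replicate 4 and banding replicate 5 are given where a call was lost. Leaving out these 2 arrays does not remove the liver difference. The liver sums were still 13.39 to 14.72 on sham replicates 1 to 3 and 6.549 to 6.901 on banding replicates 1 to 4. The fit without these 2 arrays therefore cannot separate liver transcripts from the groups either. All 9 markers of T, B and NK cells measured were dim in both groups. A group is called dim here when its mean lies under 4.198 log2 units, 2 units above the floor of the table.

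Upstream sequences of Il6, Socs3 and Sprr1a are shown because these were the members higher in banding whose windows held any of the motifs searched. They come from RefSeq promoter windows of build GRCm38.p6, and 250 bases before each start site were searched on both strands for 6 motifs, chosen with the members' results known: TTCNNNGAA (STAT type), TTGCNNAA (C/EBP type), TGACGTCA (CRE), TGACTCA (AP-1 type), the TATA box type and the NF-kB type. Capitals mark the matches, as read on the gene's own strand. A match to the CRE holds no match to the AP-1 type, and no 2 of the printed matches overlap. The letters of the TATA box type (TATAAA) and of the NF-kB type can be read from the last matches of Sprr1a and of Il6, with any base allowed at the fifth position of the NF-kB type. The Il6 and Sprr1a stretches are the 250 bases before the start site, at chr5:30012864-30013113 (plus strand) and chr3:92485882-92486131 (minus strand). The Socs3 stretch is the 30 bases around its STAT type match, at chr11:117969501-117969530 (minus strand).
Il6: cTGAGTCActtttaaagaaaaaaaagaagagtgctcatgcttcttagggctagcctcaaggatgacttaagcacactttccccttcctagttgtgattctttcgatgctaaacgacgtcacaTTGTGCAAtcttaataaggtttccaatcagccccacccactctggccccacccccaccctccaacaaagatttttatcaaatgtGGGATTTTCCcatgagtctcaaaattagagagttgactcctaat
Socs3: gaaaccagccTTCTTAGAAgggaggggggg
Sprr1a: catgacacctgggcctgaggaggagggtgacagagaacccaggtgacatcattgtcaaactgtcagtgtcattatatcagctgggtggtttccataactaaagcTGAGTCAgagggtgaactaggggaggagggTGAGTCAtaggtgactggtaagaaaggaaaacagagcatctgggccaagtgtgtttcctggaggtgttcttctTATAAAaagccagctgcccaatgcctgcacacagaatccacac

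Socs3 held the STAT type match at bases -154 to -146 from its start site, and it was the only member window to hold this motif, which 7.02% of all 32851 windows hold. Sprr1a held the AP-1 type motif at -146 to -140 and at -116 to -110, with the TATA box type at -43 to -38. Il6 held the AP-1 type at -249 to -243, the C/EBP type at -128 to -121 and the NF-kB type at -44 to -35. The AP-1 type motif was also in the Lif window and in 1 of the 2 Il11 windows, and 4.46% of all windows hold it. The NF-kB type is in 0.356% of windows, the C/EBP type in 9.56%, the TATA box type in 12.4% and the CRE in 1.55%, and no member window held the CRE. The windows of Lifr, Osmr, Il6st and Stat3 held none of the 6. These are matches of letters and not binding sites.

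Of the 8 members other than Sprr1a, 4 passed upwards in banding, 1 passed downwards and 3 did neither on the test across all genes (limma, Benjamini-Hochberg adjusted p of 0.05). Il6, Osmr, Stat3 and Socs3 were higher, Lifr was lower, and Il11, Lif and Il6st did not pass. Across all genes 38.4% passed, with 18.4% higher and 20.0% lower. Among the 11013 genes above the dim level in a group 62.0% passed, so a count of this size is not by itself a result about the family. The median difference over the 8 members was 0.21 log2 units, and it was 0 over all genes. In 5 of the 8 the banding and sham values did not overlap, with 4 above and 1 below, while this held for 36.7% of all genes (17.4% above and 19.3% below). It held for 6466 of the 11013 genes above the dim level in a group, where 6 of the 8 members lay. With the mean level of the liver markers as a covariate, which was 2.81 to 4.86 in banding and 8.50 to 12.48 in sham and so nearly coincides with the groups, Osmr was the only 1 of the 8 to pass (2.0, adjusted p = 0.031). Il6 (5.04, adjusted p = 0.0751), Socs3 (1.86, adjusted p = 0.209), Lifr (-0.53, adjusted p = 0.394) and Stat3 (0.24, adjusted p = 0.483) kept their direction in that fit.

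**Figure D1:**
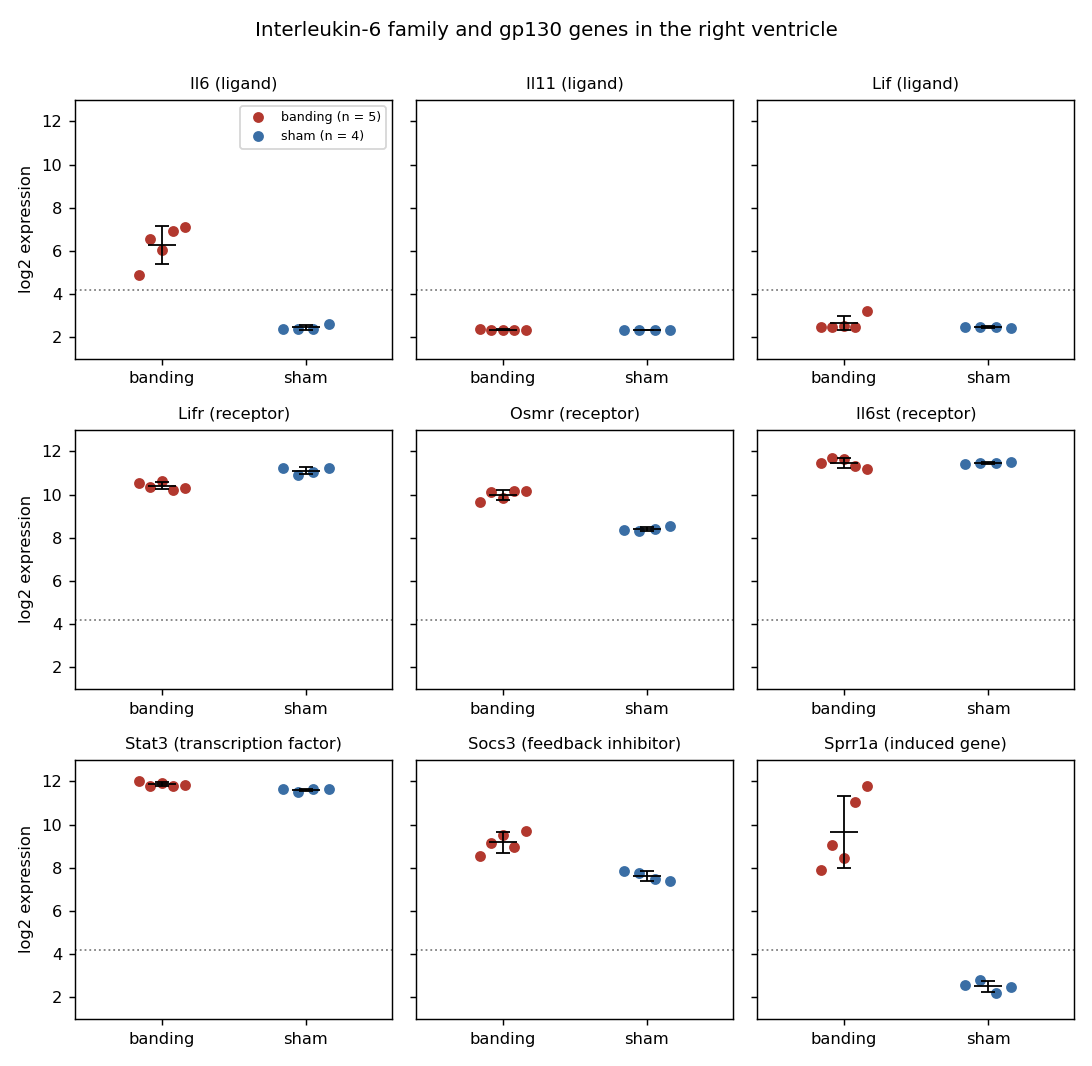
Log2 expression of the 9 members in each array, with banding (5 arrays) on the left and sham (4 arrays) on the right of each panel. Points are arrays, the dash and bar are mean ± SD, and the dotted line is the dim level of 4.198. Il6 and Sprr1a lie above that line on every banding array and under it on every sham array, Osmr and Socs3 are higher in banding, Lifr is lower, and Il11 and Lif lie under the line throughout.

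Among the 3 ligands, only Il6 was measured above the dim level. Il6 encodes interleukin-6, the inflammatory cytokine that gives the family its name. Its single probe set read 4.90, 6.54, 6.02, 6.90 and 7.10 on banding replicates 1 to 5, against 2.40, 2.40, 2.40 and 2.61 on sham replicates 1 to 4. Every sham array lay near the floor, every banding array lay above the dim level, and the groups did not overlap. The mean was 6.29 ± 0.88 (SD, n = 5) in banding and 2.46 ± 0.10 (SD, n = 4) in sham, a difference of 3.84 ± 0.44 log2 units (SE, limma adjusted p = 0.000364). Against the dim level as the highest sham value that can be read, this is at least 4.27-fold. Only 61 of the 18193 genes showed a rise of this size or more, Il6 included. Without sham replicate 4 and banding replicate 5 the difference was 3.69 (adjusted p = 0.00368).

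Il11 and Lif could not be followed with these arrays. Il11, the cytokine interleukin-11, known for its action on fibroblasts, read 2.33 to 2.41 in banding and 2.34 on all sham arrays, and its difference was 0.01 (adjusted p = 0.756). Lif, leukaemia inhibitory factor, read 2.50 to 3.23 in banding and 2.43 to 2.50 in sham at the brighter of its 2 probe sets, with the highest value on banding replicate 5 (difference 0.16, adjusted p = 0.504). Its other probe set stood at the floor of 2.198 on every array. A change in either transcript below the dim level may not have been detected.

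The receptor chains moved apart. Osmr, a chain for oncostatin M, was higher in banding, Lifr, a chain for LIF, was lower, and Il6st, their shared partner for these ligands, did not pass at its brightest probe set.

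Osmr read 9.68, 10.11, 9.83, 10.17 and 10.16 on banding replicates 1 to 5, against 8.35, 8.32, 8.41 and 8.54 on sham replicates 1 to 4. The lowest banding array stood more than 1 log2 unit above the highest sham array. The mean was 9.99 ± 0.22 (SD, n = 5) in banding and 8.41 ± 0.10 (SD, n = 4) in sham, and the rise of 1.58 ± 0.12 log2 units (SE) was 3.0-fold (limma adjusted p = 7.45e-05). A second, dimmer probe set gave 6.32 ± 0.33 (SD, n = 5) in banding and 4.66 ± 0.31 (SD, n = 4) in sham, a rise of 1.67 ± 0.21 (SE). The third probe set of Osmr lay at or next to the floor on every array. Of all genes, 679 rose by as much as Osmr or more.

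Lifr read 10.56, 10.36, 10.63, 10.23 and 10.31 on banding replicates 1 to 5, against 11.24, 10.90, 11.06 and 11.24 on sham replicates 1 to 4. Every banding array was below every sham array. The mean was 10.42 ± 0.17 (SD, n = 5) in banding and 11.11 ± 0.16 (SD, n = 4) in sham, a difference of -0.69 ± 0.11 log2 units (SE, limma adjusted p = 0.00152), or 1.62-fold lower. The other 2 probe sets were also lower in banding, by larger amounts. Probe set 1425107_a_at averaged 5.71 ± 0.34 (SD, n = 5) in banding and 7.29 ± 0.92 (SD, n = 4) in sham, a difference of -1.58 ± 0.43 (SE). Its highest value, 8.56, was on sham replicate 4, where liver transcripts were highest, and liver is a tissue that expresses Lifr. The part of liver transcripts in this difference was not tested. The fit without sham replicate 4 and banding replicate 5 cannot decide it, because the liver sums of the groups still differed. In that fit the difference of 1425107_a_at was -1.20 (limma adjusted p = 0.0380 over all probe sets), and that of the brightest probe set was -0.63 (adjusted p = 0.0192). Probe set 1450207_at averaged 4.32 ± 0.58 (SD, n = 5) in banding and 5.58 ± 0.20 (SD, n = 4) in sham. Its difference of -1.27 ± 0.30 (SE, adjusted p = 0.0136) did not pass when both arrays were left out (-1.23, adjusted p = 0.0731).

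Il6st, which encodes gp130, was among the brightest members, and its 4 probe sets disagreed. The brightest, 1452843_at, read 11.47, 11.68, 11.67, 11.30 and 11.20 on banding replicates 1 to 5, against 11.44, 11.48, 11.44 and 11.50 on sham replicates 1 to 4. The banding arrays lay on both sides of the sham arrays. Its difference was 0.00 log2 units with a 95% interval of -0.25 to 0.25 (limma adjusted p = 1). Probe set 1437303_at read 10.15, 10.55, 10.49, 9.95 and 9.98 on the banding arrays, against 9.22, 9.32, 9.21 and 9.92 on the sham arrays. The groups did not overlap there, although sham replicate 4 came close to the lowest banding value. That difference was 0.81 ± 0.20 (SE, limma adjusted p = 0.0181 over all probe sets), and without sham replicate 4 and banding replicate 5 it was 1.04 (adjusted p = 0.00791). The remaining probe sets, 1460295_s_at and 1421239_at, differed by 0.23 ± 0.10 and 0.02 ± 0.16 (SE), and neither passed (adjusted p = 0.128 and adjusted p = 1). The spread of differences between the probe sets of Il6st was 0.81, against a median of 0.61 over the 730 genes with at least 4 probe sets above the dim level. Whether 1437303_at reads a transcript form that the others miss was not tested.

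**Figure D2:**
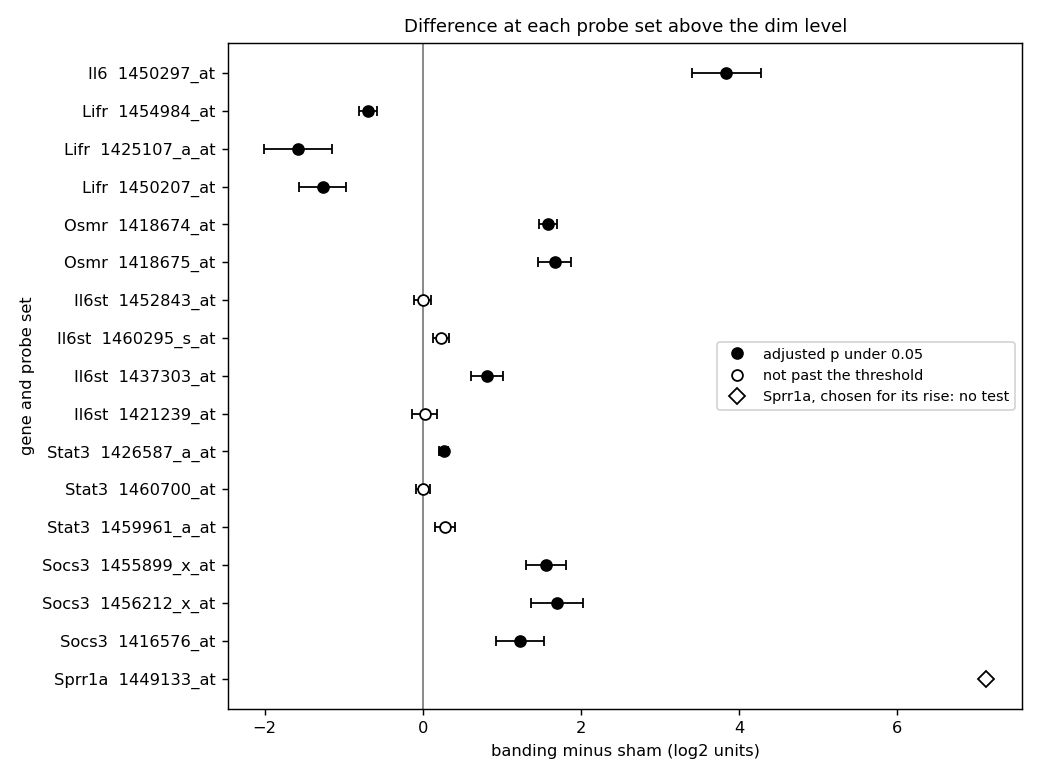
Banding minus sham difference in log2 units at each of the 17 member probe sets above the dim level in a group, with bars of 1 SE. Filled points passed an adjusted p of 0.05 over all probe sets, open circles did not, and the diamond is Sprr1a without a test. The 3 Lifr probe sets lie left of 0, those of Osmr and Socs3 lie right of it, and those of Il6st and Stat3 are split between passing and not passing.

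Counted over probe sets, 8 of the 21 that belong to the 8 members passed upwards in banding and 3 downwards, and 5 of the other 10 were above the dim level. Over all 34945 probe sets with a single gene, 31.4% passed, 15.3% higher and 16.1% lower. Some probe sets passing and others not is common on these arrays: it held for 41.6% of the 4858 genes with more than 1 probe set above the dim level, while passing in both directions held for 1.89%. No member had probe sets that passed in both directions.

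Stat3, the transcription factor that carries the signal to the nucleus, was high in both groups and changed little. Its brightest probe set read 12.03, 11.80, 11.92, 11.80 and 11.81 on banding replicates 1 to 5, against 11.64, 11.52, 11.63 and 11.64 on sham replicates 1 to 4. The groups did not overlap, but the gap between them was small. The rise of 0.26 ± 0.06 log2 units (SE, limma adjusted p = 0.00676) was 1.20-fold. A second bright probe set, 1460700_at, read 10.33 to 10.50 in banding and 10.15 to 10.56 in sham, with a difference of 0.00 ± 0.09 (SE, adjusted p = 1 over all probe sets). A fainter one, 1459961_a_at, which averaged 4.69 in banding and 4.42 in sham, differed by 0.28 ± 0.12 (SE, adjusted p = 0.145), and the last stood at the floor. The rise therefore rested on 1 of the 3 probe sets that could be read, and with the mean of all probe sets it was 0.13 (adjusted p = 0.017).

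Socs3, which encodes the suppressor of cytokine signalling that STAT3 induces and that blocks gp130, was higher in banding at all 3 of its probe sets. The brightest read 8.53, 9.16, 9.52, 8.95 and 9.71 on banding replicates 1 to 5, against 7.85, 7.77, 7.46 and 7.37 on sham replicates 1 to 4. All banding arrays lay above all sham arrays, and the banding arrays were spread over 1.18 log2 units. The mean was 9.17 ± 0.47 (SD, n = 5) in banding and 7.61 ± 0.23 (SD, n = 4) in sham, a rise of 1.56 ± 0.25 (SE, limma adjusted p = 0.0018), or 2.95-fold. The name of this probe set, 1455899_x_at, marks probes that may bind other transcripts, and so does that of the next, 1456212_x_at, which rose by 1.70 ± 0.32 (SE). The third, 1416576_at, carries no such mark. It read 3.61 to 5.06 in banding and 3.07 to 3.42 in sham, near the dim level, and its rise of 1.23 ± 0.30 (SE, adjusted p = 0.0174) missed the threshold once sham replicate 4 and banding replicate 5 were left out (1.03, adjusted p = 0.0708). The promoter stretch printed for Socs3 above holds its STAT type match.

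Sprr1a encodes a small proline-rich protein known from the cornified envelope of skin, and in cultured cardiac myocytes it is known to be induced by cytokines that act through gp130. Its probe set read 7.89, 9.08, 8.46, 11.04 and 11.77 on banding replicates 1 to 5, against 2.58, 2.80, 2.20 and 2.50 on sham replicates 1 to 4. The sham arrays were all near the floor, and the banding arrays were spread over 3.88 log2 units. The mean was 9.65 ± 1.68 (SD, n = 5) in banding and 2.52 ± 0.25 (SD, n = 4) in sham, a difference of 7.13, at least 43.7-fold. Only 4 genes of the 18193 were higher in banding by this much or more, Sprr1a included. Its spread in banding was also among the widest: 0.145% of the genes above the dim level had a larger SD there, against 0.917% for Il6 and 6.29% for Socs3, and the median SD over those genes was 0.16.

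The other measured genes of the Sprr1a family could not be read on these arrays. Sprr2a1, Sprr2a2, Sprr2a3, Sprr2b, Sprr2e, Sprr2g and Sprr4 were not among the genes measured and were not examined. All 9 measured genes of the SPRR and cornified envelope list, among them Sprr1b, Sprr2d, Sprr2f, Sprr2h, Sprr3, Ivl and Lor, were dim in both groups and none passed. Of the keratinocyte and epithelial markers, Krt14, Krt1 and Ivl stood at the floor in both groups and Krt5 averaged 3.99 in banding and 3.94 in sham. The list's summed level was 8.452 to 9.305 in banding and 8.159 to 8.728 in sham, with 2 of 11 higher, 1 lower and 8 dim in both groups. Krt18 was higher, at 7.78 in banding and 5.73 in sham on average, with overlapping groups (limma adjusted p = 0.0227). Epcam was also higher (0.60, adjusted p = 0.024) but dim in both groups, and Krt10 was lower (-0.43, adjusted p = 0.0193).

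The banding arrays differed in their levels of these genes. Banding replicate 1 was the lowest banding array for Il6, Osmr, Socs3 and Sprr1a, and banding replicate 5 was the highest for Il6, Socs3 and Sprr1a. For Osmr the highest was banding replicate 4, at 10.17, with banding replicate 5 at 10.16. The low position of banding replicate 1 was common elsewhere: it was the lowest of the 5 in 45.0% of the 3277 genes that were higher in banding and above the dim level, against 18.9% for banding replicate 5. The highest array among those genes was banding replicate 2 in 29.97%, banding replicate 4 in 28.6% and banding replicate 5 in 26.1%. The macrophage marker sums of banding replicates 1 to 5 were 14.75, 15.07, 15.17, 14.89 and 15.34. Banding replicate 4 was thus low there, while it was high for Il6 and Sprr1a. The cardiomyocyte marker sums were 18.84, 18.7, 18.77, 18.62 and 18.62 in the same order, and the liver sum was highest on banding replicate 5, at 9.748. Whether cell or liver content accounts for the order of the banding arrays was not tested. Sprr1a separated banding replicates 4 and 5, at 11.04 and 11.77, from the other 3 at 7.89 to 9.08, while Osmr and Lifr varied by 0.50 and 0.40 log2 units over the 5 arrays.

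**Figure D3:**
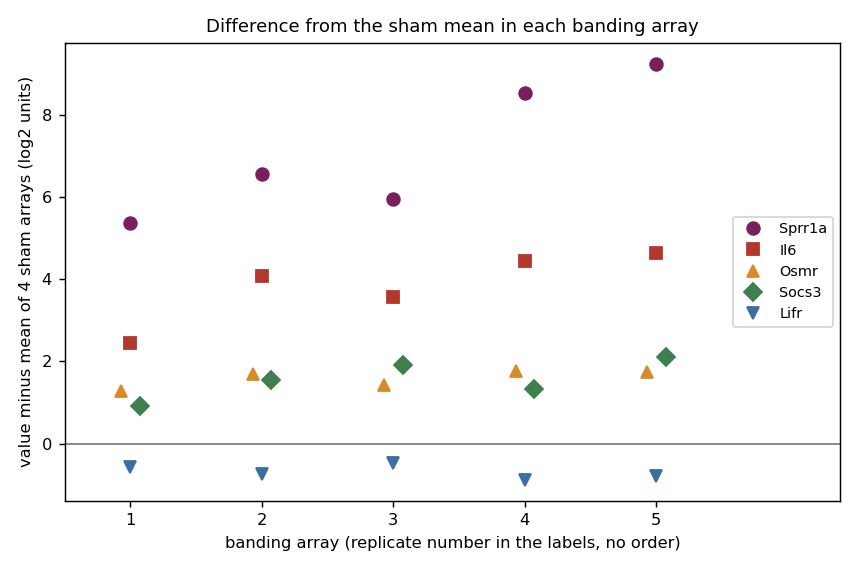
Difference of each banding array from the mean of the 4 sham arrays, in log2 units, for Sprr1a, Il6, Osmr, Socs3 and Lifr; the replicate numbers on the horizontal axis carry no order, and Osmr and Socs3 points are set slightly apart sideways. Banding replicate 1 has the smallest rise in all 4 genes that were higher, and the points of Sprr1a are spread most, over 3.88 log2 units.

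The genes whose profiles came closest to each member were found by the root mean square difference of log2 values over the 9 arrays, each gene centred on its own mean, among 11012 genes above the dim level in a group. The values describe likeness and carry no test. For Socs3 the closest were Rgs19 (0.169 log2 units), the complement gene C1qb (0.175) and Nckap1l (0.215), where C1qb is also on the macrophage list. For Osmr they were Hmgn3 (0.0592), Sec61a1 (0.0708) and Fkbp14 (0.0797), and for Il6 they were P4ha3 (0.284), which encodes a subunit of collagen prolyl hydroxylase, Anln (0.317) and Lgals3 (0.323). For Sprr1a they were Serpinb1a (0.764), C1qtnf3 (0.949) and Lox (1.01). These distances grow with a gene's own variation, and the root mean square about its own mean was 3.72 for Sprr1a. It was 0.847 for Socs3, 0.151 for Stat3 and 0.143 for Il6st. The nearest to Lifr was Map3k5 (0.0793), to Stat3 Gxylt1 (0.0466) and to Il6st Zfp740 (0.0570).

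The other genes of the pathway were taken from 5 lists with 56 measured genes, of which 20 passed upwards in banding and 8 downwards, with a median difference of 0.14. That is 50% of the list, of which 46 genes were above the dim level, against 38.4% of all genes and 62.0% of all genes above the dim level. Without sham replicate 4 and banding replicate 5, 24 passed in place of 28.

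Of the 4 other ligands and partner chains analysed here, 1 was higher and 1 was lower. Ctf1, which encodes cardiotrophin 1, a gp130 cytokine first known from heart, read 6.21, 5.72, 6.36, 5.84 and 5.37 on banding replicates 1 to 5, against 7.55, 7.73, 7.48 and 7.54 on sham replicates 1 to 4. Every banding array was lower, by -1.68 ± 0.20 log2 units on average (SE, limma adjusted p = 0.000464), or 3.19-fold. Ebi3, a subunit of interleukin-27, averaged 4.50 ± 0.25 (SD, n = 5) in banding and 3.21 ± 0.43 (SD, n = 4) in sham, at least 1.24-fold higher (adjusted p = 0.0023). Osm, a ligand of OSMR, stood at the floor of 2.198 on every array, and Clcf1 was dim in both groups.

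None of the 4 other receptor chains measured passed in limma. Il27ra read 5.13 to 5.57 in banding and 4.96 to 5.13 in sham (difference 0.16, adjusted p = 0.296). Il6ra, the chain that binds interleukin-6 itself, was dim in both groups at 4.02 in banding and 3.94 in sham, and Cntfr and Il31ra lay near or at the floor. Il11ra1 and Il11ra2 were not analysed here.

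Among the kinases and the STAT proteins other than Stat3, 2 of 9 passed upwards and 3 downwards. Jak1, the main kinase on gp130, was high in both groups and fell 1.28-fold in banding (-0.36 ± 0.08 log2 units, SE, limma adjusted p = 0.00672), while Jak2 and Tyk2 did not pass (0.12, adjusted p = 0.44, and 0.23, adjusted p = 0.0816). Stat5a and Stat5b, which serve growth hormone and many cytokines, were 2.24-fold and 1.81-fold lower (adjusted p = 0.0022 and adjusted p = 0.0018). Stat5a read 6.14 to 6.84 in banding and 7.37 to 7.97 in sham. Stat2, a partner in interferon signalling, was 2.04-fold higher (adjusted p = 0.00306). Stat4 also passed (0.22, adjusted p = 0.0277) but was dim in both groups. Stat6 (0.09) and Jak3 did not pass.

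Of 15 SOCS genes and other attenuators, 6 passed upwards and 2 downwards. The phosphatase genes Ptpn6 and Ptpn1 were 2.60-fold and 1.84-fold higher (limma adjusted p = 0.000559 and adjusted p = 1.76e-05). Ptpn6 encodes SHP-1, a phosphatase of blood-derived cells, and its difference of 1.38 log2 units was 0.75 with the mean of its probe sets. Ptpn11, which encodes SHP2, the phosphatase that docks on gp130, read 12.00 in banding and 12.03 in sham on average and did not pass. Pias3, the inhibitor that binds STAT3, was 1.57-fold higher (adjusted p = 0.00119), and Pias1 was 1.51-fold lower (adjusted p = 0.00189). Socs4 (1.57-fold), Socs2 (1.5-fold) and Socs6 (1.42-fold) were higher, with limma adjusted p of 0.0237 for Socs2 and 0.023 for Socs6. Socs2 lost its call without banding replicate 3, banding replicate 4 or sham replicate 3 (adjusted p of up to 0.0659), with the mean of its probe sets (0.25, adjusted p = 0.0881) and without probe sets that may bind other transcripts (adjusted p = 0.0783). Socs6 lost its call without banding replicate 3, banding replicate 5 or sham replicate 2 (adjusted p of up to 0.0667), and with sham replicate 4 and banding replicate 5 both left out (0.49, adjusted p = 0.0948). The call of Socs4 was lost with the mean of its probe sets (0.10, adjusted p = 0.196). Cish, a feedback gene of STAT5, read 8.53 to 9.33 in banding and 9.23 to 10.75 in sham, so that the groups overlapped. Its difference of -1.15 ± 0.34 log2 units (SE, adjusted p = 0.0305) did not pass without any 1 of banding replicates 2 to 5, sham replicate 1 or sham replicate 4 (adjusted p of 0.0534 to 0.0809), or with sham replicate 4 and banding replicate 5 both left out (-1.0, adjusted p = 0.134). Socs5 (0.27, adjusted p = 0.0601) missed the threshold, and so did Socs7, Pias2, Pias4 and Ptpn2. Socs1 stood at the floor on every array.

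**Figure D4:**
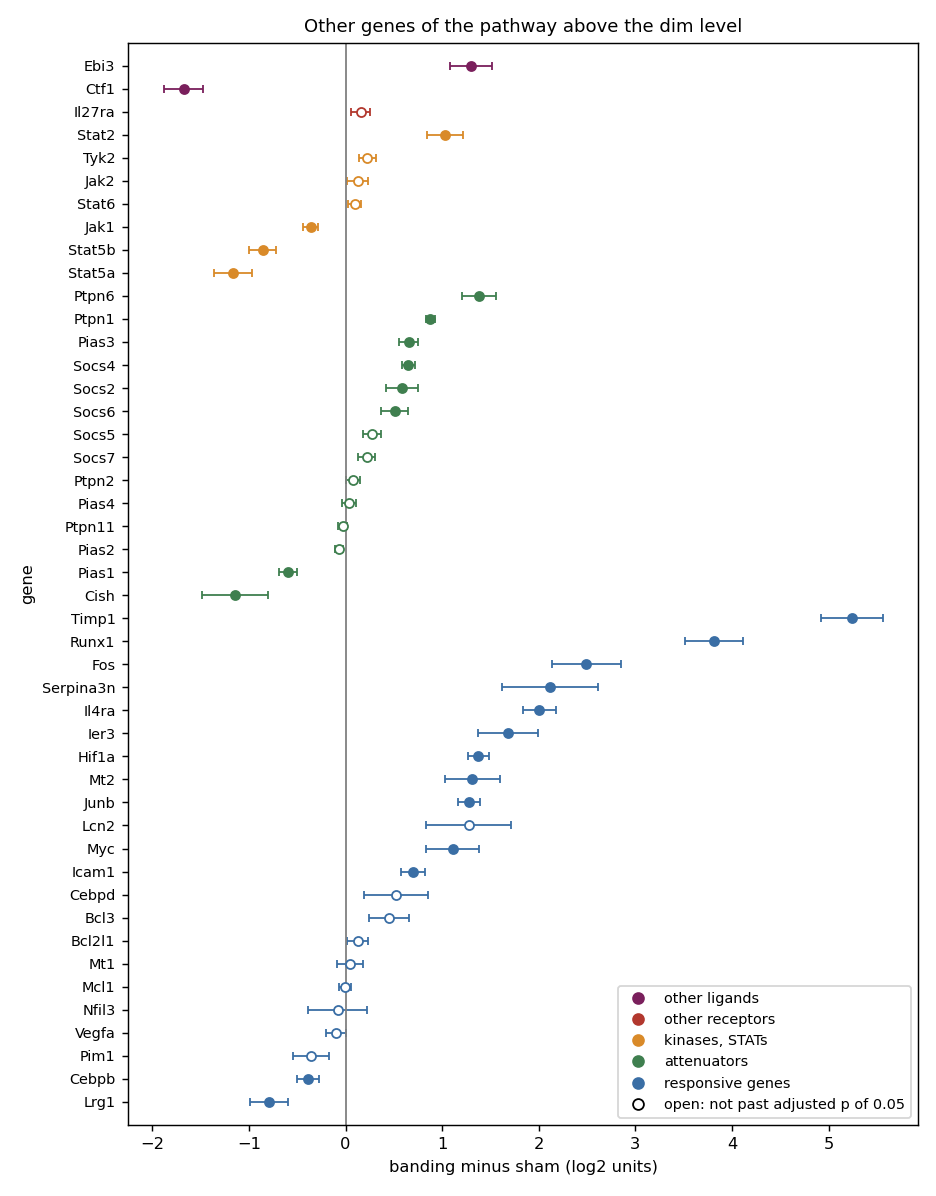
Banding minus sham difference in log2 units, with bars of 1 SE, for the 46 genes of the 5 other pathway lists that were above the dim level in a group, coloured by list. Filled points passed an adjusted p of 0.05 over all genes. Ctf1, Stat5a and Cish have the lowest values, Timp1 and Runx1 the highest.

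The last of these lists holds 24 genes known to respond to gp130 cytokines or STAT3 in at least some cell type, and most answer to other signals too. Of these, 11 passed upwards, 2 passed downwards and the other 11 did neither, so that 54.2% passed, against 38.4% of all genes and 62.0% of those above the dim level, where 22 of the 24 lay. The median difference of the list was 0.61 log2 units, and it was 0 over all genes and -0.01 over those above the dim level. The largest rise was in Timp1, an inhibitor of matrix proteases, which read 10.46 to 11.47 in banding and 4.89 to 6.24 in sham (37.7-fold, limma adjusted p = 3.59e-05). Runx1, a transcription factor, was at least 11.4-fold higher (adjusted p = 9.23e-05). It read 7.25 to 8.31 in banding and 3.27 to 4.46 in sham. Fos (5.63-fold), Il4ra (4.01-fold), Hif1a (2.59-fold) and Junb (2.42-fold) were also higher. The remaining genes that passed upwards were Serpina3n (2.11 log2 units), Ier3 (1.68), Mt2 (1.31), Myc (1.11) and Icam1 (0.69). Whether those calls hold under the alternative fits was not examined. With the mean of all probe sets the differences of Runx1 (1.88 in place of 3.81), Il4ra (1.16 in place of 2.003) and Hif1a (0.88 in place of 1.38) were smaller and still passed. The 2 lower genes were Lrg1 (1.73-fold, adjusted p = 0.0147) and Cebpb (1.31-fold, adjusted p = 0.0322), named after their values were seen. Cebpb lost its call without any 1 of banding replicates 2 to 5 or sham replicate 2, with an adjusted p of up to 0.0721, and Lrg1 lost its call when sham replicate 4 and banding replicate 5 were both left out (adjusted p = 0.0864). Examples of listed genes that did not pass were Bcl3 (0.45, adjusted p = 0.131), Pim1 (-0.36, adjusted p = 0.192) and Mcl1 (0.00, adjusted p = 1), and Reg3b and Reg3g were dim in both groups. These 5 were named after their values were seen.

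Acute phase genes, which interleukin-6 induces in liver, were kept apart because liver transcripts stood on the sham arrays. Of 17 measured, 11 were lower in banding, 1 was higher and 5 did not pass. The lower ones were led by Fga, a fibrinogen chain, which averaged 2.61 in banding and 10.58 in sham. Saa3, a serum amyloid A gene that is also made outside the liver, went the other way. It read 7.33, 8.43, 11.27, 8.38 and 9.37 on banding replicates 1 to 5, against 4.24, 4.41, 4.49 and 4.41 on sham replicates 1 to 4. All banding arrays were higher, by 4.57 ± 0.73 log2 units (SE, limma adjusted p = 0.00177), or 23.7-fold, with banding replicate 3 the highest.

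Inflammatory cytokines outside the family were mostly not readable on these arrays: 9 of 14 were dim in both groups, among them Tnf, Il1a, Il10 and Ifng. Il33, an alarmin of the interleukin-1 family, was 5.22-fold higher (limma adjusted p = 0.00227), at 8.23 to 9.51 in banding and 5.54 to 7.15 in sham. Il15, a cytokine of lymphocyte survival, was 6.85-fold lower (adjusted p = 0.000217), at 7.60 to 8.76 in banding and 10.87 to 11.17 in sham. Il1b was at least 1.43-fold higher (adjusted p = 0.0118), with overlapping groups, and missed the threshold once sham replicate 4 and banding replicate 5 were left out (adjusted p = 0.0662). Csf1, which supports macrophages, had a difference of -0.46 (adjusted p = 0.0481) that did not pass in 7 of the 9 fits that each left out 1 array (all banding replicates and sham replicates 1 and 4), with an adjusted p of up to 0.12.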

How the data were processed

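The deposited table gives log2 expression for 45101 probe sets on 9 arrays. RMA and GCRMA, methods that correct background and normalise arrays together, are named in the submitters' processing notes, with no version or order. That the values are on a log2 scale was inferred from their span, 2.198 to 16.43. Nothing was transformed again. Array medians lay between 3.23 and 3.31, and 44.6% to 45.5% of probe sets lay above the dim level. The number of arrays limits the precision.

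Control probe sets (64), those with no gene (9160) and those with several (932) were left out. Where a gene had several probe sets, the one brightest on average stood for it, which left 18193 genes. The difference of banding minus sham was fitted with limma 3.58.1 in R 4.3.3 (lmFit, eBayes, no covariate, two-sided), adjusted over all genes. Probe sets were also fitted singly. The fit was tested on simulated data. Figures used matplotlib 3.10.9.

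The members, lists, motifs and tests were chosen with earlier results of these data known. Named were all members, all genes of the ligand, receptor, kinase and attenuator lists, from every other list up to 6 genes of smallest p, up to 4 of the brightest markers, and the 3 profiles nearest each member. Markers named otherwise, Krt1, Krt5, Krt14, Tnf, Il1a, Il10, Ifng and the SPRR genes, illustrate dim lists. Epcam and the remaining higher genes of the list of responsive genes were named because they passed.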

Additional observations from a re-analysis of the deposited data

Results flagged for a closer look

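Over the member probe sets and named pathway genes, 93 groups were examined for an array far from the others of its group, by Dixon's ratio of the gap to the range, and 8 held such an array. Chance flags about 1 in 20 groups. Among the members, Lifr at 1450207_at was lowest on banding replicate 4 (3.31, with the next array at 4.45, ratio 0.768). Osmr at 1418675_at was highest on sham replicate 2 (5.12 against 4.54, ratio 0.841). Il6st at 1437303_at was highest on sham replicate 4 (9.92 against 9.32, ratio 0.838), the array with the most liver transcripts. At another Il6st probe set, 1421239_at, the same array was the lowest sham array (7.81, with sham replicates 1 to 3 at 8.42, 8.56 and 8.49). The part of liver transcripts in these values was not tested. Stat3 had an array apart at each readable probe set: sham replicate 2 was lowest at 1426587_a_at (11.52 against 11.63, ratio 0.934), banding replicate 1 was highest at 1460700_at (10.50 against 10.35, ratio 0.874), and banding replicate 2 was highest at 1459961_a_at (4.93 against 4.69, ratio 0.756). Outside the members, Il27ra was highest on banding replicate 2 (5.57 against 5.22, ratio 0.799) and Cebpb on sham replicate 4 (10.45 against 9.98, ratio 0.921).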

How the results depend on the processing

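Of the 8 tested members, 5 passed under each alternative except 2. Without probe sets whose suffix marks shared or alternative transcripts 4 passed, since Stat3 was then read by 1460700_at (-0.0038, adjusted p = 1). With the mean of the liver markers as a covariate, 1 member passed (Osmr), 4 of the 56 other pathway genes and 1287 of all 18193 genes, against 6989. That mean was 2.81 to 4.86 in banding and 8.50 to 12.48 in sham, so it nearly coincides with the groups. Under it Cish (0.33), Cebpb (0.24) and Csf1 (0.29) changed sign. Fitted singly, 10960 of 34945 probe sets passed. Leaving out single arrays gave 6270 to 6701 genes, 5 members in each fit and 23 to 28 other pathway genes. The replicate block gave 5277 genes, 5 members and 20 other pathway genes, and same-numbered arrays did not deviate together (correlations of -0.0294 to 0.0361 over 11013 genes), so the numbers were not taken as pairs. The block ended the calls of Ebi3 (adjusted p = 0.0648), Socs2 (0.0783), Socs6 (0.153), Cish (0.091), Lrg1 (0.0916), Cebpb (0.107), Il1b (0.0676) and Csf1 (0.122). With the mean of all probe sets the differences of Lifr (-1.18), Jak1 (-0.19), Stat2 (0.68) and Pias1 (-0.32) moved by over 1.5 times and passed, Tyk2 passed (0.14), and Socs5 passed under 5 alternatives. Raising lower values to the dim level gave differences of 5.45 for Sprr1a and 2.09 for Il6, and that of Sprr1a was 9.66 with the liver covariate. Signal near the floor limits Il6 in sham, Il11, Lif, Osm and Il6ra.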
